A study of Mus musculus with 10 samples.

Results

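Immediate early and stress response genes were followed in cultures of mouse adipocytes with an intact or a Cre-targeted Fam20c gene, which encodes a kinase of the secretory pathway. The set held 10 genes, Fos, Fosb, Fosl2, Jun, Junb, Jund, Egr1, Ier2, Atf3 and Nr4a1, each found by its exact symbol among the 56748 genes of the deposited count table, and all 10 passed the filter on low counts that left 14270 genes for testing. Stromal vascular cells of inguinal fat came from male mice aged 6 to 8 weeks and were differentiated over 6 to 8 days, in both groups alike. Per the study's methods, insulin was present throughout differentiation, rosiglitazone in all but the last step, and IBMX and dexamethasone in the first step only. The 5 control cultures had the genotype Fam20c-flox, and the 5 KO cultures carried Adipoq-Cre together with the floxed allele. The Adipoq promoter drives Cre in adipocytes, so the deletion is not directed at other cells of the culture. Fam20c was not measured by cell type. RNA of whole cultures was sequenced, with 18949106 to 26237825 counted fragments per control library and 19883101 to 23291792 per KO library. Whether the 5 cultures of a group came from separate animals is not given in the sources used here, and the p-values measure the spread between these cultures, which may be technical.

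Immediate early genes are transcribed within minutes of a stimulus from factors already present in the cell, and their mRNAs decay fast. FOS and JUN proteins pair through leucine zippers to form AP-1, which binds DNA, while EGR1 is a zinc finger factor, NR4A1 an orphan nuclear receptor, IER2 a nuclear protein of the early response, and ATF3 a factor of the cAMP response element family that is induced by many stresses. In fat, such genes are known to respond to serum, cAMP and the handling of cells.

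Fam20c itself had 8.86, 10.3, 11.9, 9.09 and 11.2 CPM (fragments scaled to a common library size, by TMM) across control libraries 1 to 5, and 6.65, 7.29, 7.11, 7.70 and 7.74 across KO libraries 1 to 5. Every KO library lay below every control library, but none was near 0. The log2 fold change was -0.49 (SE 0.0934, n = 5 per group, adjusted p = 0.0121, edgeR quasi-likelihood F test, Benjamini-Hochberg). The culture label was checked against adipocyte markers, of which all 13 listed were detected. Fabp4, a fatty acid carrier of adipocytes, was their most abundant gene at 20805 ± 357 CPM in the controls and 22552 ± 945 CPM after Cre (SD, n = 5 each).

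Control library 4 and KO library 1 stood above the others of their groups in the early genes, and KO library 4 stood below its group. Summed over the 10 genes they held 340.4 and 359.5 CPM, against 253.4 to 301.4 CPM in the other 8 libraries. KO library 1 had the highest value of all 10 libraries for 5 of the genes and control library 4 for 2. KO library 4 had the lowest sum, 253.4 CPM, the lowest value for 3 of the genes and the lowest mitochondrial share, 1.92%. Control library 5 had a share of 2.09% and the lowest value for 0 genes. Control library 1 had a share of 4.31% and the lowest value for 3 genes. After group means were removed, the mean z-score of the genes was 0.95 in control library 4, 0.96 in KO library 1 and -1.02 in KO library 4. Their totals of 21253808 and 20640487 fragments lay within the range of the other libraries. The 10 most abundant genes took 14.2% and 14.0% of their counts, against 11.5% to 14.0% elsewhere, and mitochondrial genes took 5.09% and 4.70%, against 1.92% to 4.71%. The part of these values in the level of the early genes was not tested, and the main results that rest on the 2 high libraries are given with and without them. Without KO library 4, 0 of the 10 genes were called between genotypes, and the log2 fold change of each kept its sign.

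TGACGT is the core of the cAMP response element, and TGACNTCA is a looser form of the whole element. The promoters of the 3 genes with a match to either are shown, with the match in capitals. TGACGT, the match of Fos and Atf3, was added to the motifs after the sequences were seen. They were chosen for the match, and nothing about how the genes moved is read from it. These are the 250 bases before the annotated start in RefSeq (GRCm38.p6), on the gene's own strand, for Fos at chr12:85473640-85473889 on the plus strand, Jun at chr4:95052223-95052472 on the minus strand and Atf3 at chr1:191183334-191183583 on the minus strand.
Fos: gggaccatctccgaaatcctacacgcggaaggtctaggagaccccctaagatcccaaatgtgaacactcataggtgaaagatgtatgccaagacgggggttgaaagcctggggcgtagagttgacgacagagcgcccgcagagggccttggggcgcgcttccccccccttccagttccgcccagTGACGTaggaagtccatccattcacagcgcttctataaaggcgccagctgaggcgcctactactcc
Jun: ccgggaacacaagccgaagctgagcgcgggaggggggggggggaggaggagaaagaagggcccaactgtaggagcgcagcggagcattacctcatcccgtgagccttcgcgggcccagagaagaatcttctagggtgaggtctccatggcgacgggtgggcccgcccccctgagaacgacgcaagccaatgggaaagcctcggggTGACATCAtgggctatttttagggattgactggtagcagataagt
Atf3: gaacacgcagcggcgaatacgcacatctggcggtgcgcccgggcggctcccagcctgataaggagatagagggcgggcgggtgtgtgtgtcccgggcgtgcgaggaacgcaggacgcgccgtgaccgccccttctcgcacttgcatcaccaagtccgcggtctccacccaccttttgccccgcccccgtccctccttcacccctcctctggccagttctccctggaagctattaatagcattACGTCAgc
In Fos the letters TGACGT, the core of the element, lay 66 to 61 bases before the start, and in Atf3 the same core on the other strand, ACGTCA, lay 8 to 3 bases before it. Jun held TGACATCA, a match to TGACNTCA without the core TGACGT, 45 to 38 bases before its start. Both strands were searched in 8 of the 10 genes. Egr1 and Ier2 were left out of the search, so nothing is said here of motifs in their promoters. The core TGACGT was present in 6.47% of 32851 windows of the same length over all genes and TGACNTCA in 7.49%, and the motifs overlap in sequence. The AP-1 motif TGANTCA (6.75% of windows) and the CArG box bound by serum response factor (1.47%) had no match in the 8 windows. The EGR motif GCGNGGGCG, present in 4.7% of windows, matched in Fosb at 50 to 42, in Fosl2 at 79 to 71 and, on the other strand, in Nr4a1 at 60 to 52 bases before the start. Junb and Jund held none of these motifs. For some genes the RefSeq start differs from the GENCODE span printed below. The Jund window, chr8:70697489-70697738, ends before the printed start of Jund and does not adjoin it. The Atf3 window lies inside the printed span of Atf3. A match describes letters in the window and not a bound site.

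Per kb of exon, the scale on which genes can be ranked, Jund had the highest level of the set and Fosb the lowest, in both groups. Jund reached 23.3 ± 1.72 CPM per kb in control and 24.97 ± 2.15 in KO cultures, followed by Jun (14.1 ± 2.16 and 15.6 ± 2.59), Fosl2 (12.1 ± 1.79 and 12.3 ± 2.03) and Atf3 (10.9 ± 1.99 and 12.2 ± 2.27; SD, n = 5 each). Ier2 at 7.96 and 8.63, Junb at 6.04 and 6.57, Fos at 5.03 and 6.03, Egr1 at 3.03 and 2.56 and Nr4a1 at 1.68 and 1.99 CPM per kb came next. Fosb had 0.168 CPM per kb in control and 0.154 in KO cultures. The order of the means was the same in both groups. Neighbours in it overlapped between libraries for Jun and Fosl2, Fosl2 and Atf3, Ier2 and Junb, and Junb and Fos, and for Egr1 and Nr4a1 in KO cultures alone. Among all genes tested, Jund stood at the 86.5th percentile per kb of exon and Fosb at the 3.41st.

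None of the 10 genes passed the test between genotypes. Across all genes 2.16% were called at an adjusted p under 0.05, edgeR quasi-likelihood F test, Benjamini-Hochberg, 264 lower in KO (1.85%) and 44 higher (0.308%), so 0 calls among 10 genes is close to this background. At an unadjusted p under 0.05 stood 2 of the 10, Egr1 and Nr4a1, against 11.8% of all genes. Control and KO libraries overlapped for every gene of the set, where 3.97% of all genes did not overlap (2.66% with KO below and 1.31% with KO above). The fitted log2 fold change was positive for 8 genes and negative for Egr1 and Fosb (the signs of Fosl2 and Fosb turned with 1 library left out), with a median of 0.12 beside -0.00085 over all genes (0.17 without control library 4 and 0.046 without KO library 1), and the median size of the change was 0.13 beside 0.072.

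**Figure D1:**
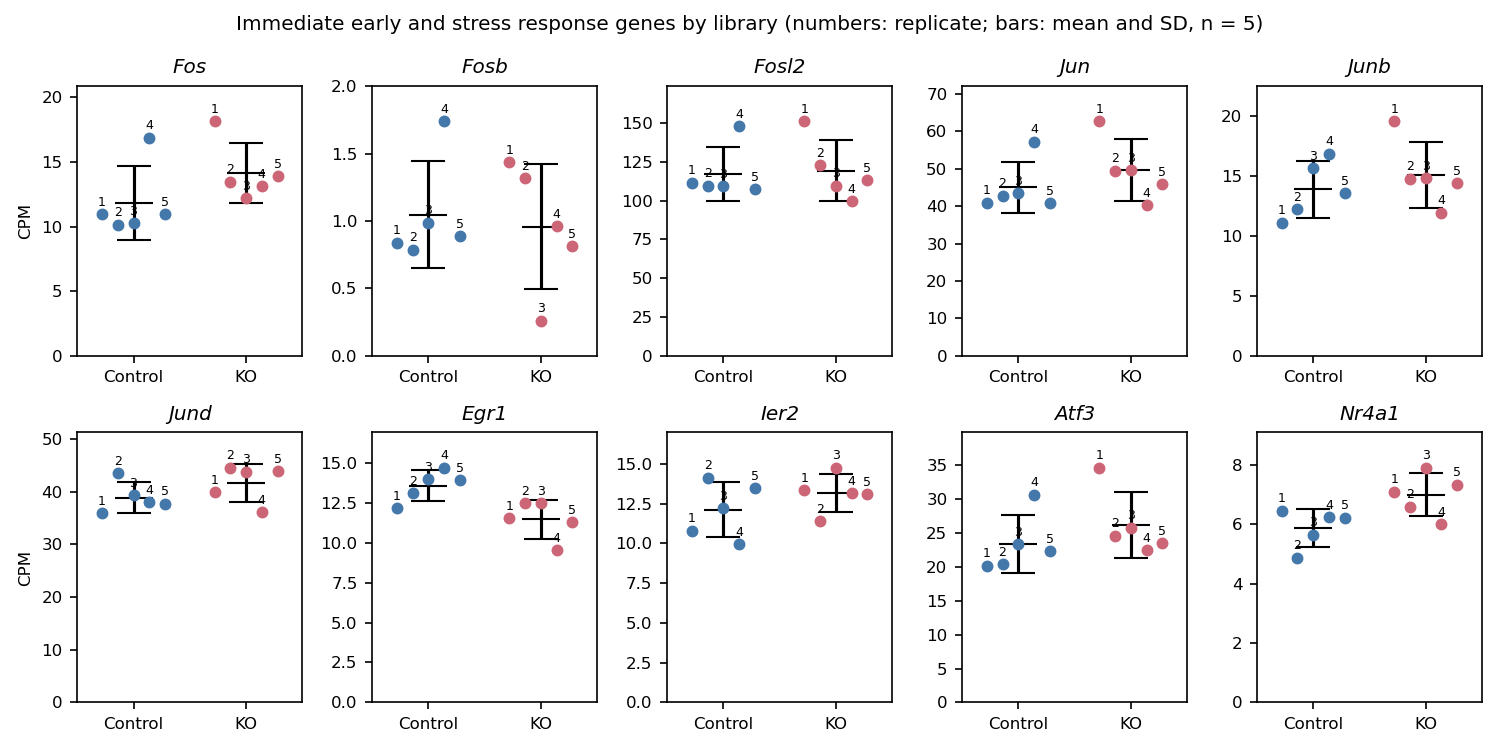
CPM of each of the 10 genes in the 5 control and 5 KO libraries, with points numbered by library and lines for the mean and SD. Control library 4 and KO library 1 are the highest of their groups for Fos, Fosl2, Jun, Junb and Atf3, and the groups overlap for all 10 genes.

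Within the FOS family, Fos, the founding member with a short-lived mRNA (ENSMUSG00000021250.14, GRCm38 chr12:85473890-85477273, plus strand), had 10.96, 10.2, 10.3, 16.9 and 10.9 CPM across control libraries 1 to 5. The KO libraries 1 to 5 had 18.2, 13.5, 12.2, 13.1 and 13.9 CPM. All KO libraries lay above 4 of the control libraries, and control library 4 lay above 4 of the KO libraries. The log2 fold change was 0.26 (95% confidence interval -0.070 to 0.59, n = 5 per group, adjusted p = 0.569, edgeR quasi-likelihood F test, Benjamini-Hochberg), a difference in CPM of 19.8% with an interval of -4.71% to 50.6%. Control library 4 decided the call. Without it the log2 fold change of Fos was 0.42 (adjusted p = 0.0465, same test), and without control library 4 and KO library 1 together it was 0.32 (adjusted p = 0.0293). Without KO library 1 alone it was 0.16, and the adjusted p over all alternatives ran from 0.0293 to 0.776. Control library 4 was singled out by these same values, and in the fit without it 0.82% of all genes were called higher in KO, 118 genes in place of 44.

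Fosl2, which encodes FRA-2 (ENSMUSG00000029135.11, chr5:32135801-32157842, plus strand), was the most abundant of the 3 FOS genes of the set. Its values were 112, 109.6, 109.5, 148 and 107 CPM across control libraries 1 to 5, and 151, 123, 109.6, 99.7 and 113 across KO libraries 1 to 5. Control library 4 and KO library 1 were almost equal and stood above the rest, which overlapped. A log2 fold change of 0.025 was fitted (95% confidence interval -0.24 to 0.29), an interval of -15.4% to 22.4% in level. Its sign turned without KO library 1 (-0.072) and without control library 5 (-0.0048). Fosb, a partner of JUN proteins best known from neurons (ENSMUSG00000003545.4, chr7:19302696-19310051, minus strand), was near the limit of detection, with 6 to 36 counts per library. It had 0.839, 0.787, 0.988, 1.74 and 0.888 CPM across control libraries 1 to 5, and 1.44, 1.32, 0.262, 0.962 and 0.814 across KO libraries 1 to 5. KO library 3 was the lowest and control library 4 the highest, and the interval of its log2 fold change, -0.90 to 0.65, allows changes in either direction at this depth. The fitted value, -0.12, turned to 0.13 without control library 4 and to 0.13 without KO library 3. Of the summed level of these 3 FOS genes per kb, Fosl2 made up 70.2% ± 1.82 in control and 66.6% ± 1.73 in KO cultures, and Fos 28.9% ± 1.68 and 32.6% ± 1.63 (SD, n = 5 each). These shares overlapped between the groups.

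Jun (ENSMUSG00000052684.5, chr4:95049034-95052222, minus strand), the JUN protein with the strongest transactivation, had 40.9, 42.8, 43.4, 57.2 and 40.9 CPM across control libraries 1 to 5, and 62.7, 49.5, 49.7, 40.3 and 45.9 across KO libraries 1 to 5. The highest value of each group was again that of control library 4 and KO library 1. Its fitted log2 fold change was 0.14 (95% confidence interval -0.13 to 0.41), 0.045 without KO library 1 and 0.24 without control library 4. Junb, often a weaker activator than JUN (ENSMUSG00000052837.8, chr8:84974484-84978718, minus strand), had 11.1, 12.3, 15.7, 16.9 and 13.6 CPM across control libraries 1 to 5, and 19.6, 14.8, 14.8, 11.96 and 14.4 across KO libraries 1 to 5. Between its groups, which overlapped, there was a log2 fold change of 0.12 (95% confidence interval -0.18 to 0.42), which was 0.015 and 0.20 in these same fits. Jund, the JUN gene expressed at a steady level in many resting cells (ENSMUSG00000071076.9, chr8:70698949-70700616, plus strand), had 35.9, 43.5, 39.3, 38.0 and 37.7 CPM across control libraries 1 to 5, and 39.9, 44.5, 43.8, 36.1 and 43.9 across KO libraries 1 to 5. Neither control library 4 nor KO library 1 stood apart for Jund. The log2 fold change of 0.10 had the narrowest interval of the set, -0.047 to 0.24. Of the 3 JUN genes per kb, Jund made up 53.8% in control and 53.2% in KO cultures, Jun 32.4% and 32.9%, and Junb 13.9% in each, all within the spread of the libraries. In the annotation an exon of Jun overlaps the antisense gene Junos, an exon of Junb overlaps Prdx2, and Jund overlaps the antisense gene Gm11175. Whether the counting used strand is not given in the sources used here, so fragments of these pairs cannot be told apart.

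Atf3 (ENSMUSG00000026628.14, chr1:191170296-191218039, minus strand) had 20.2, 20.4, 23.4, 30.7 and 22.3 CPM across control libraries 1 to 5, and 34.6, 24.6, 25.8, 22.4 and 23.5 across KO libraries 1 to 5. It had the same high libraries as Jun and Fosl2. Its log2 fold change was 0.16 (95% confidence interval -0.14 to 0.47), 0.047 without KO library 1 and 0.28 without control library 4, and the groups overlapped.

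Egr1, a direct target of ERK signalling through serum response factor (ENSMUSG00000038418.8, chr18:34859823-34864984, plus strand), went the other way. It had 12.2, 13.1, 14.0, 14.7 and 13.9 CPM across control libraries 1 to 5, and 11.6, 12.5, 12.5, 9.53 and 11.3 across KO libraries 1 to 5. The lowest control library lay below the highest KO libraries, and KO library 4 was the lowest of all. The log2 fold change was -0.24 (95% confidence interval -0.42 to -0.062, adjusted p = 0.216, edgeR quasi-likelihood F test, Benjamini-Hochberg), from 13.6 ± 0.968 to 11.5 ± 1.21 CPM (SD, n = 5 each). Nr4a1, an orphan receptor induced by cAMP in adipocytes (ENSMUSG00000023034.8, chr15:101254269-101274795, plus strand), had 6.45, 4.87, 5.64, 6.24 and 6.21 CPM across control libraries 1 to 5, and 7.09, 6.59, 7.90, 6.00 and 7.33 across KO libraries 1 to 5. Only KO library 4 lay within the control range. Its log2 fold change was 0.25 (95% confidence interval 0.028 to 0.47, adjusted p = 0.34, same test). Exact two-sided permutation tests over the libraries, run for each of the 10 genes and not adjusted, gave p = 0.0238 for Egr1 and p = 0.0476 for Nr4a1, where the smallest p the design allows is 0.00794. Both fail the correction over all genes.

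Ier2 (ENSMUSG00000053560.6, chr8:84661331-84662852, minus strand) had 10.8, 14.1, 12.2, 9.96 and 13.5 CPM across control libraries 1 to 5, and 13.3, 11.4, 14.8, 13.1 and 13.1 across KO libraries 1 to 5. Control library 4, high for most of the set, was the lowest of all libraries for Ier2. On the log2 scale the fold change was 0.11 (95% confidence interval -0.11 to 0.33), 0.051 without control library 4 and 0.17 without control library 2.

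**Figure D2:**
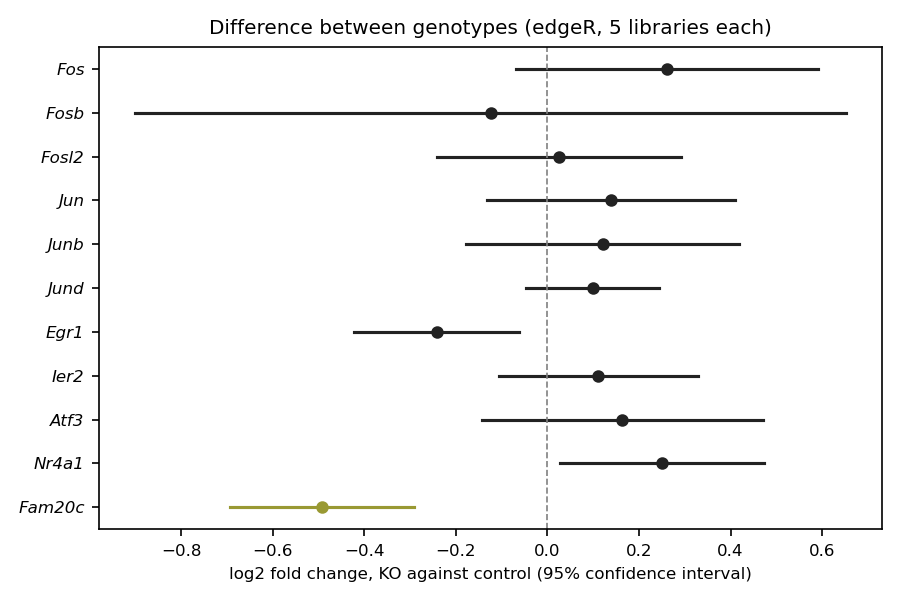
Log2 fold change of KO against control for the 10 genes and Fam20c, with points for the edgeR estimate and lines for its 95% confidence interval (5 libraries per group). The intervals of 8 early genes cross 0, that of Egr1 ends at -0.062 and that of Nr4a1 begins at 0.028, and Fam20c lies at -0.49.

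The 10 genes differed in how far replicate cultures spread. The SD of log2 CPM within groups was 0.264 for Fos, 0.211 for Fosl2, 0.218 for Jun, 0.249 for Junb and 0.245 for Atf3. Against the 500 genes nearest in abundance these 5 stood between the 90.8th percentile (Junb) and the 95.2nd (Fosl2), and Fosb, with an SD of 0.670, at the 97.0th. The other 4 lay closer to genes of like abundance, Ier2 at the 80.0th percentile, Jund at the 65.5th, Egr1 at the 54.1st and Nr4a1 at the 39.9th. Without control library 4 and KO library 1, an alternative added after the data were seen, the SD was 0.0706 for Fos, 0.0890 for Fosl2, 0.104 for Jun, 0.0947 for Atf3 and 0.182 for Junb. It was 0.617 for Fosb, 0.131 for Jund, 0.144 for Egr1, 0.162 for Ier2 and 0.175 for Nr4a1, so that the SDs of Jund, Egr1 and Nr4a1 rose. The 2 libraries were picked because several of these genes were extreme in them, so the lower SDs of those genes follow from the choice and are not ranked against other genes.

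In the fit of all 10 libraries, Fos had a biological coefficient of variation of 16.1%, 1.56 times the trend of the fit at its abundance, while that of Jund was 7.84% and that of Egr1 8.33%. The spread did not pass the test between genotypes for any of the 10 (limma on absolute deviations from the group mean, Benjamini-Hochberg adjustment), and 0 of all genes passed it. On simulated counts of this design the test found few genes of wider spread after adjustment, so these counts of 0 say little. At an unadjusted p under 0.05 stood 5.56% of all genes and none of the set. On simulated counts with no change of spread 9.04% of genes stood there, so this share cannot be read against the limit of 0.05. The widest difference in the set was that of Fosb, 0.32 (adjusted p = 0.987 by the same limma test), and it was 0.0080 without KO library 3 and 0.55 without control library 4.

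**Figure D3:**
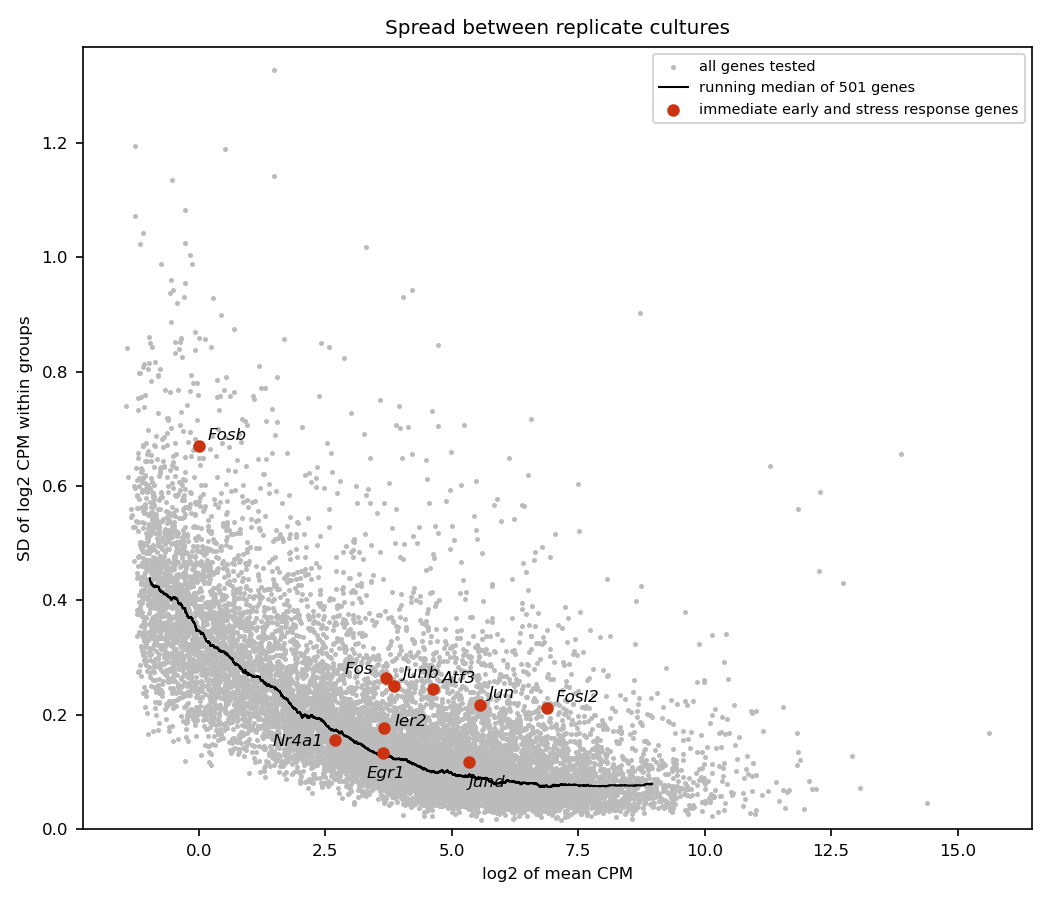
SD of log2 CPM within groups against log2 mean CPM for all genes tested (grey), with the running median in black and the 10 genes in red. Fos, Fosb, Fosl2, Jun, Junb and Atf3 lie above most genes of like abundance over all 10 libraries, and Egr1 and Nr4a1 lie near the median. Without control library 4 and KO library 1 the SD of Fos is 0.0706.

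Some of the genes shared their course over the libraries and others did not. After group means were removed, the correlation of each gene with the mean of the other 9 over the 10 libraries was 0.94 for Jun, 0.91 for Junb, 0.89 for Atf3, 0.88 for Fosl2 and 0.69 for Fos. It was 0.66 for Egr1, 0.27 for Fosb, 0.23 for Nr4a1, 0.086 for Jund and -0.39 for Ier2. By rank (Spearman's rho) the values were 0.84 for Jun, Junb and Atf3, 0.56 for Fosl2, 0.38 for Fos, 0.60 for Egr1 and 0.44 for Fosb, and 0.14, 0.018 and -0.30 for Jund, Nr4a1 and Ier2. These are descriptions over libraries that share depth and handling, and all values of a library share its scaling. Without control library 4 and KO library 1 the values for Jun, Junb, Fosl2 and Atf3 were 0.80, 0.78, 0.65 and 0.64, whereas Fos fell to -0.20 and Fosb to -0.25. Egr1 then stood at 0.93, Jund at 0.62, Nr4a1 at 0.21 and Ier2 at -0.18. The closest pair by Pearson's r was Fosl2 and Jun (r = 0.96, Spearman's rho 0.68), and by rank it was Junb and Atf3 (rho 0.99). Over all 45 pairs the mean was 0.30, with 31 pairs above 0, and 0.19 without the 2 libraries. Of all genes tested, 3.39% had a correlation of at least 0.8 with the mean of the set and 3.24% one of at most -0.8, so a correlation of this size is not particular to early genes. The first principal component, the main axis of variation of all genes after group means were removed, held 28.6% of the variance. The mean of the set correlated with it at 0.86 in absolute value, so much of its course was shared with other genes.

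**Figure D4:**
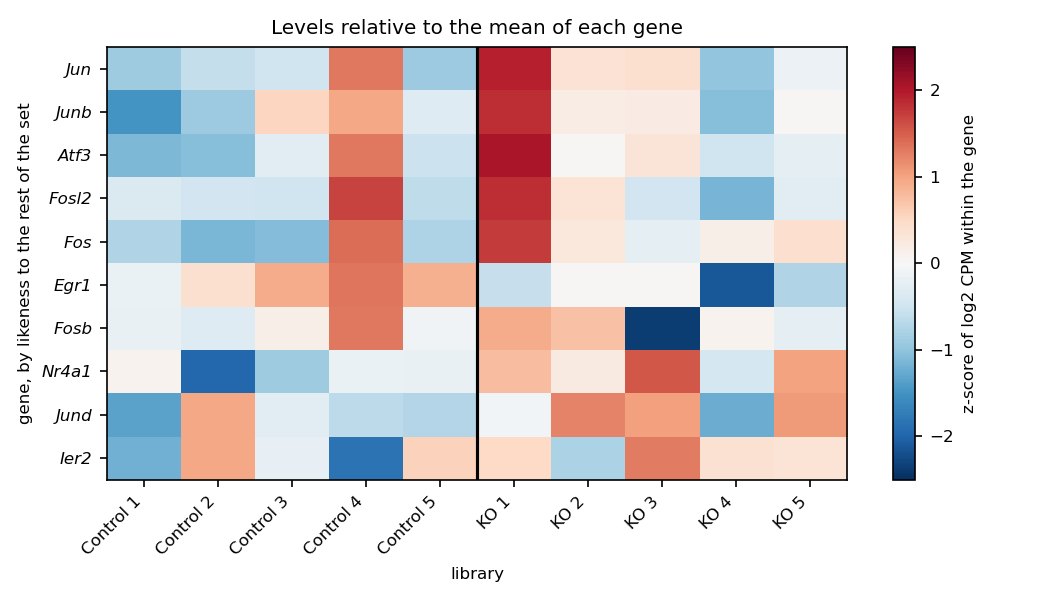
Z-scores of log2 CPM over the 10 libraries for each of the 10 genes, with libraries as columns and genes as rows. Control library 4 and KO library 1 are high for most genes (mean z 0.67 and 1.09), while Ier2 is low in control library 4.

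The 8 genes outside the set with the most similar course over the 10 libraries were Nab2, Tbkbp1, Mmp17, Cavin1, Nudt18, Nectin2, H2-Ab1 and Cdk18, with r between 0.95 (Cdk18) and 0.98 (Nab2), and between 0.83 (Cdk18) and 0.96 (Nudt18) without control library 4 and KO library 1. Nab2, a corepressor that binds EGR proteins, had 46.9 CPM in control library 4 and 47.1 CPM in KO library 1, against 36.3 to 41.4 CPM in the other control and 35.4 to 41.1 CPM in the other KO libraries. H2-Ab1, an MHC class II chain of antigen-presenting cells, had 15.6 and 14.6 CPM in these libraries and 7.13 to 10.8 CPM elsewhere. Cavin1, a coat protein of caveolae, had 907.9 and 910.1 CPM. None of the 8 was called between genotypes.

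Other lists of the early response were described by their counts beside the background of 1.85% lower and 0.308% higher. Of the AP-1 and small Maf genes outside the set, 0 of 10 tested were called (median log2 fold change 0.037), of other inducible transcription factors 0 of 21 (0.088), of feedback inhibitors 0 of 16 (0.057) and of heat shock genes 0 of 16 (-0.0015). Without KO library 1 these medians were 0.0014, 0.038, 0.029 and 0.022, in the same order. Without control library 4 they were 0.035, 0.12, 0.095 and -0.020. The same 2 libraries were high in these lists, heat shock genes excepted. Fosl1, which encodes FRA-1, had 21.0, 17.96, 18.6, 54.6 and 23.0 CPM across control libraries 1 to 5, and 60.9, 35.9, 25.9, 25.2 and 30.4 across KO libraries 1 to 5. Control library 4 lay above 4 KO libraries, and the other controls lay below all of them. Its log2 fold change was 0.40 (adjusted p = 0.788, edgeR quasi-likelihood F test, Benjamini-Hochberg) and, without both libraries, 0.55 (adjusted p = 0.0344). Fosl1 was called in 0 of the 10 fits that left out 1 library, where its log2 fold change ran from 0.13 to 0.83. Maff, a small Maf protein, likewise had 49.8 CPM in control library 4 and 55.6 CPM in KO library 1, against 28.1 to 29.0 CPM in the other controls and 33.0 to 37.7 CPM in the other KO libraries. Its log2 fold change was 0.25 (adjusted p = 0.743, same test) and, without both, 0.28 (adjusted p = 0.0109), with 0 calls in the 10 fits that left out 1 library (0.087 to 0.44). Both calls come from leaving out the libraries picked for their high early genes, a fit in which 1.09% of all genes were called higher. Among feedback genes, Zfp36l2, an mRNA decay factor, had 123.2 and 122.5 CPM in the 2 libraries, against 73.3 to 94.3 CPM elsewhere. The inducible factors of highest level per kb were Klf9, a target of glucocorticoids, at 247.2 ± 26.5 and 287.9 ± 12.8 CPM, and Id3, an inhibitor of helix-loop-helix factors, at 73.4 ± 4.22 and 75.7 ± 2.80 CPM (control and KO, SD, n = 5 each), and neither was called. Of the 21 inducible factors, Cebpd and Klf9 were called higher without control library 4 (0.82% of all genes were) and Id2 lower without KO library 1 (1.92% of all genes were). Without both, 3 were called higher (Bhlhe40, Klf9 and Maff, beside 1.09% of all genes) and Id2 lower (beside 2.5%), all named after their values were seen apart from Klf9 and Maff. Nothing is read from these counts either, as the libraries were picked for their high early genes.

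Of 31 other early genes that are not transcription factors, Ccn2 alone was called (1 of 31 lower, 0 higher, median log2 fold change 0.070). The median was -0.064 without KO library 1. Plk3 was called higher without control library 4 (1 of 31, beside 0.82% of all genes), and Errfi1, Plk3 and Ptgs2 were without both libraries (3 of 31, beside 1.09% of all genes), names chosen after their values were seen. Those libraries were picked for their high early genes, so leaving them out lowers the spread of genes that were high in them. Nothing is read from these counts. Ccn2, a matricellular protein and target of YAP and TGF-beta signalling, had 16.7, 14.6, 23.7, 24.6 and 21.6 CPM across control libraries 1 to 5, and 14.9, 12.2, 11.4, 10.9 and 12.2 across KO libraries 1 to 5. The groups overlapped at control library 2 and KO library 1. Its log2 fold change was -0.72 (SE 0.145, adjusted p = 0.0237, edgeR quasi-likelihood F test, Benjamini-Hochberg), and it was called in 4 of the 10 fits that left out 1 library. It was not called with no filter on low counts (adjusted p = 0.0752) or with a replicate block (adjusted p = 0.115). Ccn1, its relative, had 165.1 ± 15.9 and 152.5 ± 11.8 CPM and Rhob, a small GTPase, 271.2 ± 9.42 and 297.1 ± 10.8 CPM (control and KO, SD, n = 5 each), and neither was called. Upstream kinases and promoter-bound factors had 1 lower gene of 25 (median 0.00048, 0.028 without control library 4 and -0.0065 without KO library 1). It was Elk3, a ternary complex factor that binds serum response factor and is known from endothelial cells. Elk3 had 14.2, 14.1, 16.2, 14.1 and 14.3 CPM across control libraries 1 to 5, and 11.01, 9.70, 10.8, 10.5 and 9.98 across KO libraries 1 to 5, with no overlap. Its log2 fold change was -0.49 (SE 0.0664, adjusted p = 0.00126, same test), called in all 10 fits that left out 1 library. Mapk3, which encodes the kinase ERK1, averaged 131.1 ± 6.11 CPM in the controls and 131.2 ± 10.7 CPM in KO (SD, n = 5 each).

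The integrated stress response, in which ATF4 drives genes of amino acid supply, had 1 higher gene of 18 tested and 17 of 18 positive fold changes (median 0.15), beside 7091 positive of 14270 genes in all. Atf4 had 297.0, 317.3, 322.2, 342.6 and 330.7 CPM across control libraries 1 to 5, and 369.4, 358.2, 379.7, 355.9 and 369.4 across KO libraries 1 to 5. Every KO library lay above every control library. The log2 fold change was 0.19 (SE 0.0421, adjusted p = 0.0337, edgeR quasi-likelihood F test, Benjamini-Hochberg), but Atf4 was called in 1 of the 10 fits that left out 1 library, with adjusted p from 0.0139 to 0.0939. It was also not called with library totals in place of TMM (adjusted p = 0.0859) or with a replicate block (adjusted p = 0.1015, edgeR in each). The mean log2 CPM of the list was 6.35 to 6.47 in control and 6.48 to 6.61 in KO libraries. Without control library 4 and KO library 1, 5 of the 18 were called higher (Asns, Atf4, Cebpg, Chac1 and Ppp1r15a, named after their values were seen), where 1.09% of all genes were. Without control library 4 alone, 2 of the 18 were called higher (Atf4 and Ppp1r15a, beside 0.82% of all genes). Without KO library 1 alone, 2 others were (Asns and Cebpg, beside 0.382% of all genes), and Atf4 was not. As the 2 libraries were picked for their high early genes, nothing is read from the counts without them.

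**Figure D5:**
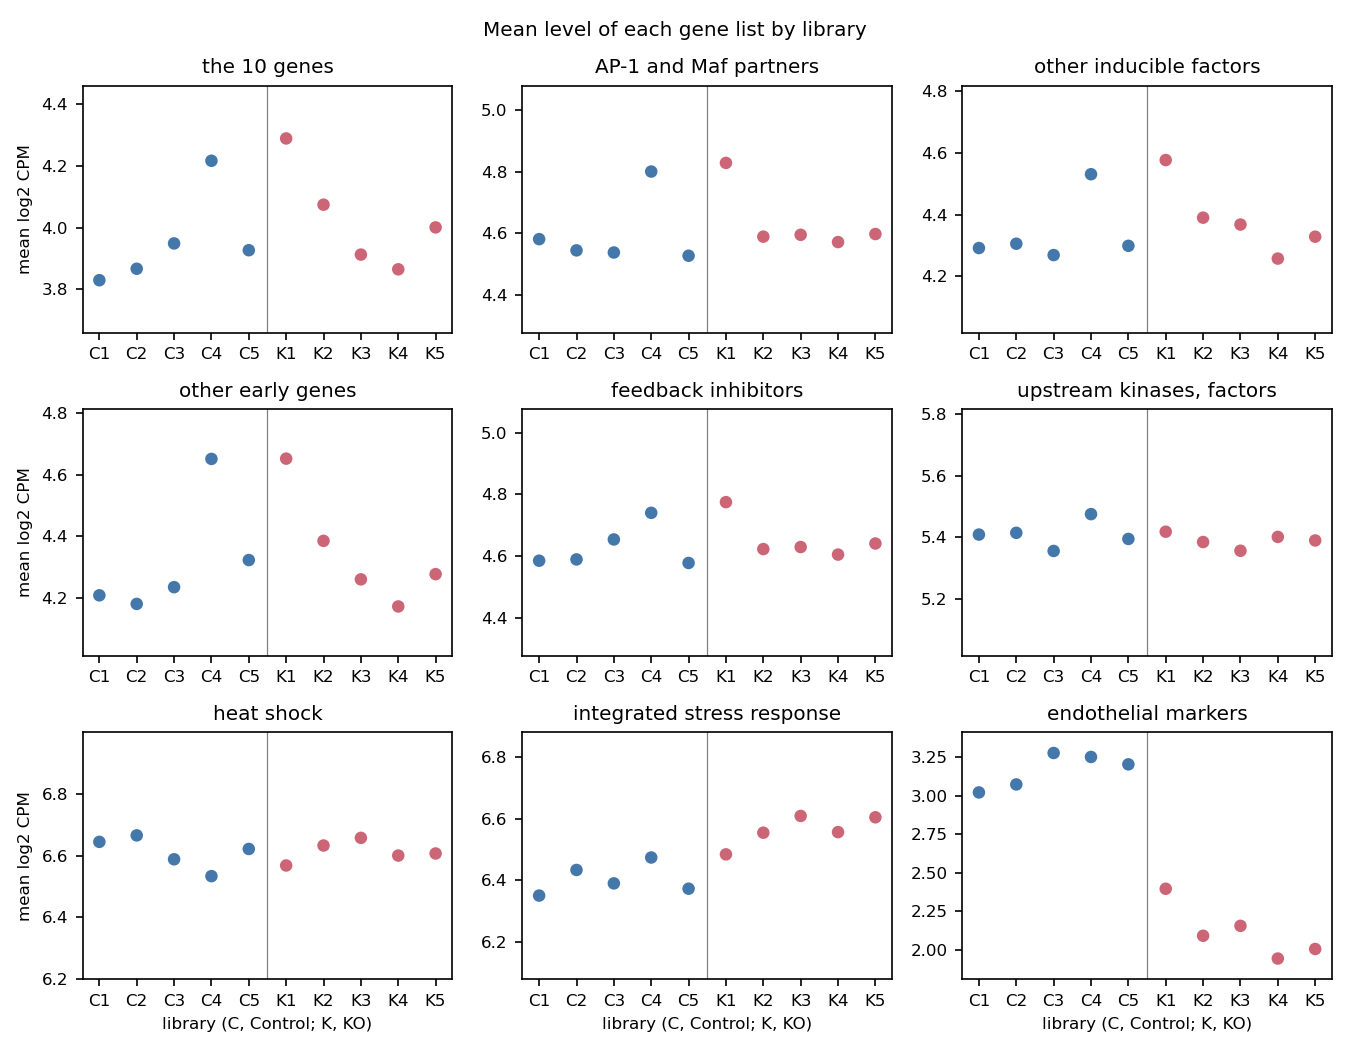
Mean log2 CPM of the tested genes of each list in the 5 control and 5 KO libraries, with a panel and an axis range per list. Control library 4 and KO library 1 are the highest of their groups for the early gene lists, and the endothelial list lies between 3.02 and 3.28 in control and between 1.95 and 2.40 in KO libraries.

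Cell types other than adipocytes also contributed RNA, and in whole cultures fewer cells of a type and less RNA per cell cannot be told apart. The counts of called markers stand beside 1.85% of all genes lower and 0.308% higher. Endothelial markers were lower in KO for 16 of 20 genes tested, with a median log2 fold change of -1.23 and all 20 fold changes negative. Their summed level was 242.8, 252.7, 285.8, 289.2 and 285.0 CPM across control libraries 1 to 5, and 166.6, 128.9, 134.3, 119.4 and 124.2 across KO libraries 1 to 5. Control library 4 and KO library 1 were the highest of their groups in this sum, while by mean log2 CPM control library 3 was the highest control. Cdh5, the cadherin of endothelial junctions and their most abundant gene, had a mean of 53.1 ± 5.11 CPM in the controls and of 22.1 ± 3.67 CPM in KO, and Robo4, an endothelial guidance receptor, had 12.2 ± 1.32 and 3.87 ± 0.846 CPM (SD, n = 5 each). The part of endothelial RNA in the early gene levels was not tested. Progenitor and fibroblast markers were lower for 4 of 12 (median -0.35), led in abundance by the collagen gene Col3a1, at 2629.9 ± 387.6 and 1896 ± 167 CPM. Summed progenitor markers ran from 5079 to 6554 CPM in control and 4218 to 5008 CPM in KO libraries, and neither control library 4 nor KO library 1 was the highest in this sum, while by mean log2 CPM KO library 1 was the highest KO library (5.64). Pericyte and smooth muscle markers had 0 calls among 9 tested (median -0.35), with Pdgfrb the most abundant, and summed to 186.1 to 245.6 CPM in control and 149.4 to 202.9 CPM in KO libraries, highest in control library 4 and KO library 1. Macrophage markers had 1 call of 14, Cd163, a scavenger receptor (log2 fold change -0.55, adjusted p = 0.00827, edgeR quasi-likelihood F test, Benjamini-Hochberg), and their most abundant gene, Lyz2, had 1116 ± 237 and 1161 ± 286 CPM (SD, n = 5 each). Summed macrophage markers ran from 1531 to 2342 CPM in control and 1339 to 2214 CPM in KO libraries. Adipocyte markers had 0 calls of 13 (median 0.050) and summed to 43807 to 45406 CPM in control and 45886 to 47694 CPM in KO libraries. Of 8 lymphocyte markers none passed the filter, and Cd3g and Ms4a1 were among those at 0 in every library.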

How the data were processed

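RNA-seq of primary adipocyte cultures gave 5 control and 5 KO libraries. Library kits were SMARTer v4 and Nextera XT. The authors aligned the read pairs to GRCm38.p6 using STAR, assigned them to Ensembl genes using featureCounts, and deposited the raw counts of each library. No column belonged to other samples (0 columns). Groups come from the genotype labels.

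Low genes were dropped (filterByExpr, minimum count 10). In R 4.3.3, edgeR 4.0.16 scaled by TMM and tested KO against control over all 14270 genes with a robust quasi-likelihood fit and Benjamini-Hochberg adjustment (limit 0.05). CPM used the TMM-scaled totals, and log2 CPM a prior count of 2. Spread was tested with limma 3.58.1. Exact permutation tests used all 252 assignments and were two-sided. Within each group, libraries differed by more than counting noise (chi-square per degree of freedom at least 3.52). Positions and exon lengths come from GENCODE M21, matched for 52073 of 56748 genes, and promoters from RefSeq. TGACGT was added to the motifs after the sequences were seen.

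The genes and lists were chosen with earlier results of these data known. Named genes are the 10, Fam20c, up to 4 called genes and the 2 highest per kb of each list, the most abundant and lowest-p marker of each cell type, and the 8 genes most alike. Not every such gene is described, and the value of 1 listed marker is not reported here. Alternatives were DESeq2 1.42.0, other scalings, filters, voom weights, a replicate block, libraries left out, other centres and prior counts for the spread, and, added later, a fit without robust estimation and the spread without control library 4 and KO library 1. The scripts were tested on simulated counts.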

Additional observations from a re-analysis of the deposited data

Results flagged for a closer look

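Dixon's ratio for the most distant of 5 libraries passed its 95% critical value of 0.71 in 11 of 48 groups of libraries, where chance alone flags about 2.40. The groups share libraries and their genes move together, so they are not independent. Fos was high in control library 4 (16.9 CPM, others 10.2 to 10.96) and in KO library 1 (18.2 CPM, others 12.2 to 13.9). Control library 4 was also apart for Fosb (1.74 CPM, others 0.787 to 0.988), Fosl2 (148 CPM, others 107 to 112) and Jun (57.2 CPM, others 40.9 to 43.4), and KO library 1 for Atf3 (34.6 CPM, others 22.4 to 25.8). In mean log2 CPM over a list, AP-1 and small Maf genes outside the set were high in control library 4 (4.80, others 4.53 to 4.58) and KO library 1 (4.83, others 4.57 to 4.60), other inducible transcription factors in control library 4 (4.53, others 4.27 to 4.31) and feedback inhibitors in KO library 1 (4.77, others 4.60 to 4.64). Progenitor and fibroblast markers were high in control library 3 (6.11, others 5.84 to 5.89).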

How the results depend on the processing

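Genes called higher in KO, 44 in all, numbered 125 with DESeq2, 67 with no filter on low counts, 111 with voom weights and 157 without control library 4 and KO library 1. With 1 library left out they ran from 21 (without KO library 5) to 118 (without control library 4), and genes called lower, 264 in all, from 175 to 335, with 358 without both libraries. Of the 10 early genes, 0 to 1 were called with 1 library left out, and 1, Fos, without both libraries (log2 fold change 0.32, range with 1 library left out 0.16 to 0.42). Fosb turned to 0.13 without control library 4 and to 0.13 without KO library 3 (range -0.31 to 0.13), and Fosl2 to -0.0048 without control library 5 and -0.072 without KO library 1 (range -0.072 to 0.13). The mean pairwise correlation was 0.19 without both libraries. The causes were not tested. Fosb rests on 6 to 36 counts per library, which limits its precision.

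With a replicate block for the library numbers, 26 genes were called higher and none of the 10 early genes was. The block also ended the calls of Ccn2 (adjusted p = 0.115) and Atf4 (adjusted p = 0.1015), but not that of Elk3. Libraries of the same number did not deviate together (r from -0.25 to 0.26), and 1 of 5 control libraries correlated best with its own number, so the numbers were not taken as pairs.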

Other observations

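Among heat shock genes, the list had its lowest mean log2 CPM of each group in control library 4 (6.53, others 6.59 to 6.67) and KO library 1 (6.57, others 6.60 to 6.66), though neither stood apart by Dixon's ratio (0.414 and 0.359, limit 0.71). The 2 genes of highest level per kb are described. Hspa8, the constitutive HSP70 of the cytosol, had 1384 CPM in control library 4, against 1538 to 1560 CPM in the other controls, and 1448 CPM in KO library 1, against 1452 to 1551 CPM in the other KO libraries. Hspd1, the mitochondrial chaperonin, had 865.1 and 851.5 CPM in these libraries, the lowest of each group. Their correlations with the mean of the early genes over the 10 libraries, after group means were removed, were -0.78 and -0.85. Of all genes tested, 3.24% had one of at most -0.8, so such values are not particular to heat shock genes. They were not computed without control library 4 and KO library 1. Neither gene was called between genotypes.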
